A study of Mus musculus with 30 samples.

Results

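The 10 genes described here encode subunits of the GATOR complexes, of the TSC complex and of mTORC1 itself. These genes bear on the control of mTORC1, the kinase complex that couples cell growth to nutrients. They were taken by symbol (Nprl2, Nprl3, Depdc5, Mios, Wdr24, Wdr59, Seh1l, Rptor, Tsc1 and Tsc2) from 55291 genes in a washout count table and from 21859 genes in each of 4 time-course tables, and all 10 were found in every table. The list was selected on the log2 fold changes of the 12 h table, where Nprl3 was among the most negative genes, so the 12 h values are given as a description. TT-seq, in which RNA made during a 5 min pulse of 4-thiouridine is purified and sequenced, was applied to mouse E14 embryonic stem cells grown without feeders in serum, LIF and inhibitors of GSK3 and MEK. The study asked what transcription does when SPT16 of the FACT histone chaperone is removed. All time-course cells carried osTIR1, the plant F-box protein through which the auxin 3-IAA directs a tagged protein to degradation. Untagged cells (0 h, and 3-IAA for 3, 6 or 12 h) were compared alongside cells with a C-terminal mini-AID and V5 tag on Supt16 (0 h, and ethanol or 3-IAA for 3, 6 or 12 h). Those 22 libraries fell into 11 groups of 2, and the tagged libraries of a group came from 2 clones. The 8 washout libraries came from the tagged lines 10E and 11D, which were given 500 nM 3-IAA (IAA) or ethanol (EtOH) for 12 h and then fresh medium for 24 h, with 2 libraries per line and treatment. Which of the 2 clones each line is was not given in the sources used here.

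GATOR1, built from Nprl2, Nprl3 and Depdc5, switches off the RagA and RagB GTPases when amino acids are short and so keeps mTORC1 away from the lysosome. GATOR2, to which Mios, Wdr24, Wdr59 and Seh1l belong, opposes GATOR1 when amino acids are present. Raptor, the product of Rptor, is the scaffold through which mTORC1 reaches the lysosome and its substrates, and the Tsc1 and Tsc2 proteins form the complex that switches off Rheb, the GTPase that activates mTORC1. In pluripotent cells low mTORC1 activity is known to accompany a paused, diapause-like state.

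The washout libraries held 11068135 to 16554314 counts in the EtOH group and 6547992 to 10978586 in the IAA group. Counts of the ribosomal RNA gene CT010467.1 made up 5.73% to 9.27% of the EtOH libraries and 20.8% to 29.3% of the IAA libraries, without overlap (two-sided exact permutation test, p = 0.0286, the smallest that 4 against 4 libraries allow). The part of this difference in the results below was not tested beyond leaving out the 6 genes that held over 1% of a library, which left the members' calls as they were. Along the first principal component, with 49.1% of the variance, scores were 64.8 and 71.3 for 10E treated with IAA, 13.8 and 21.1 for 11D treated with IAA, and below 0 for all EtOH libraries. Along the second, with 20.2%, the EtOH libraries split by replicate number in both lines. Those numbered 1 were at 44.8 (10E) and 40.8 (11D), and those numbered 2 at −18.7 and −21.0. The IAA libraries split by line there, at 11.8 and 13.3 for 10E and −39.4 and −31.5 for 11D. Of 8 pluripotency genes, 7 were tested and none passed in either direction. Their summed levels were 1952 to 3399 CPM (counts scaled to a common library size) in EtOH and 2214 to 2467 CPM in IAA. Sox2 was listed at 0 in every library, and whether this reflects its transcription or the counting was not tested. Of 6 primitive endoderm genes, 4 were tested and 2 rose in IAA, beside 8.83% of all tested genes. Their summed levels were low, at 8.95 to 12.0 CPM in EtOH and 14.7 to 16.4 CPM in IAA over all 6 genes. Of 6 trophoblast genes 3 were tested, of 6 fibroblast genes 2 were tested, and none passed. Summed levels of the fibroblast genes were 440 to 527 CPM in EtOH and 514 to 964 CPM in IAA. Among them Fn1 had mean levels of 477 CPM in EtOH and 750 CPM in IAA (edgeR, adjusted p = 0.0565). No neural marker was high enough to be tested. Supt16 itself, whose RNA is not what the degron removes, was at a log2 fold change of 0.53 (edgeR, adjusted p = 0.0657), which checks no label.

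In the washout comparison Tsc2, the Rheb-inactivating subunit of the TSC complex, was the member that changed: it rose 1.71-fold in the IAA libraries. The other 9 genes did not pass. Read against a background of 8.83% of 15110 tested genes called higher and 7.6% called lower, 1 of 10 higher and 0 of 10 lower lie near the share of all genes. Of the fitted log2 fold changes 7 were positive and 3 were negative, and their median was 0.18 against −0.05 over all tested genes. The signs were mixed: the GATOR1 subunits Nprl2 and Nprl3 and the GATOR2 subunit Mios had negative values, and the TSC genes, Depdc5, Wdr24, Wdr59, Seh1l and Rptor had positive ones.

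Nprl3 encodes the GATOR1 subunit that pairs with Nprl2, and its introns are known in mouse to hold enhancers of the alpha-globin genes. It lies on the minus strand of chromosome 11 at 32225628 to 32267707 (mm10), a span of 42080 bp. In line 10E its level was 59.1 and 52.7 CPM in the EtOH libraries and 30.5 and 24.3 CPM in the IAA libraries. In line 11D it was 59.2 and 44.0 CPM in EtOH and 37.3 and 50.02 CPM in IAA. Both 10E IAA libraries and the lower 11D IAA library lay below every EtOH library. Only the higher 11D IAA library lay above the lower 11D EtOH library, so the groups overlapped. The means were 53.7 ± 7.19 CPM in EtOH and 35.5 ± 11.02 CPM in IAA (SD, n = 4 each). The log2 fold change was −0.59 ± 0.22 (SE) and did not pass (edgeR quasi-likelihood test, adjusted p = 0.0781). The authors' deposited table of the same comparison gave −0.62 and an adjusted p of 0.0509. In bulk libraries such as these, fewer cells of a type and less RNA per cell cannot be told apart.

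The promoters of the members that were called in any table are shown because they make plain how unlike the start regions of these genes are. Each sequence is 300 bases long, 250 before to 50 after the RefSeq start in GRCm38.p6, on the gene's own strand and 5′ to 3′. Capitals mark a match, on either strand, to 1 of 6 motifs, none of which contains another. The ETS motif was searched as the word CCGGAAG, present in 8.86% of 32851 promoters of this length. The TATA box was searched as TATAAA, present in 13.6% of them. The E-box was searched as CACGTG, present in 7.15% of them, and the cyclic AMP response element as TGACGTCA, present in 1.79% of them. The amino acid response element was searched as TGATGNAA, present in 3.97% of them, and the NRF1 motif was present in 0.971% of them. The windows are chr11:32267658-32267957 (Nprl3, minus strand), chr11:119602655-119602954 (Rptor, plus strand), chr6:8208977-8209276 (Mios, plus strand) and chr17:24632578-24632877 (Tsc2, minus strand).
Nprl3: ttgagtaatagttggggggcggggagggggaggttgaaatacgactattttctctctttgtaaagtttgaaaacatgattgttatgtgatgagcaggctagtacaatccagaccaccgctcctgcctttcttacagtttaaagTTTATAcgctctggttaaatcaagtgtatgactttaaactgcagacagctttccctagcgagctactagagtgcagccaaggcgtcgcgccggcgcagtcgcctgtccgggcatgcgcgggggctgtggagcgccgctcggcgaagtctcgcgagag
Rptor: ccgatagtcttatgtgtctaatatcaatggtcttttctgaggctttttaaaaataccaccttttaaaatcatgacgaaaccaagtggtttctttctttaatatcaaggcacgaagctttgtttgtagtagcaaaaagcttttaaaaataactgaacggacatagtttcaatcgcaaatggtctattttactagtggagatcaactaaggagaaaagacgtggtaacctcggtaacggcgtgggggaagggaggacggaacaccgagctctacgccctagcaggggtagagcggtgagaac
Mios: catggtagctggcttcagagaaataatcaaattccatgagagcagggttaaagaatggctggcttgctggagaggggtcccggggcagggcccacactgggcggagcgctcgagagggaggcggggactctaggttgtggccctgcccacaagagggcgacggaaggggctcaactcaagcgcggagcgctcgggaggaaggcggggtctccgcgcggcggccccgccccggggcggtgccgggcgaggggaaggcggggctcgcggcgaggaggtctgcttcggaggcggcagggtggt
Tsc2: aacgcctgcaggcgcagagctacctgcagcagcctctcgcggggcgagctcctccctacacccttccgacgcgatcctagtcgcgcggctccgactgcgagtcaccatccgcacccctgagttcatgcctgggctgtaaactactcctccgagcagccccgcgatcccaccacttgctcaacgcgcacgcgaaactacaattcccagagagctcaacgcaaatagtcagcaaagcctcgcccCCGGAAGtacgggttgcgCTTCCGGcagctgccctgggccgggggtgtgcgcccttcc
GC content was 52.0% for Nprl3, 41.7% for Rptor, 69.0% for Mios and 65.0% for Tsc2, beside a median of 52.7% over 32851 promoters. CpG counts were 20, 13, 27 and 29, beside a median of 7 and an upper quartile of 20. The Nprl3 window holds 1 match to TATAAA on the opposite strand. The Tsc2 window holds 2 matches to CCGGAAG, 1 on each strand. No searched word is in the Rptor or Mios window. Of the other members with an entry (8 of 10 had one; Wdr24 and Seh1l had none), Nprl2 holds 1 match to CCGGAAG and Depdc5, Wdr59 and Tsc1 hold no searched word. The E-box, cyclic AMP, amino acid response and NRF1 motifs are in none of the 8 windows.

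Nprl2, which carries the catalytic residue of GATOR1, is a short gene of 3481 bp on chromosome 9 (107542226 to 107545706, plus strand) and 57.8% of it is exonic. Its counts were low: 24 to 51 in the EtOH libraries and 3 to 17 in the IAA libraries. In line 10E the levels were 1.85 and 2.35 CPM in EtOH against 0.587 and 1.31 CPM in IAA. In line 11D they were 2.03 and 1.79 CPM in EtOH against 1.61 and 1.89 CPM in IAA. Only the upper 11D IAA library reached into the EtOH range. The log2 fold change was −0.52 ± 0.38 (edgeR, adjusted p = 0.365).

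Depdc5, the largest GATOR1 subunit and the one that contacts the Rag GTPases, spans 130536 bp on chromosome 5 (32863701 to 32994236, plus strand). Its level in line 10E was 110 and 96.4 CPM in EtOH and 162 and 192 CPM in IAA. In line 11D it was 130 and 138 CPM in EtOH and 136 and 131 CPM in IAA. The 10E IAA libraries lay above every other library, and the 11D libraries of both treatments lay within 8 CPM of each other. Over both lines the log2 fold change was 0.39 ± 0.18 (adjusted p = 0.16). Within GATOR1, then, the fitted values for Nprl3 and Depdc5 had opposite signs, and neither passed.

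Among the GATOR2 genes none passed. Mios, a GATOR2 subunit with a beta-propeller and a RING domain (chromosome 6, 8209222 to 8236274, plus strand), was at 7.02 and 12.0 CPM in the EtOH libraries of line 10E and at 3.91 and 6.44 CPM in its IAA libraries. In line 11D it was at 9.96 and 16.3 CPM in EtOH and at 10.56 and 10.65 CPM in IAA. The groups overlapped, and the log2 fold change was −0.50 ± 0.33 (adjusted p = 0.316). Wdr24, a WD40 and RING domain subunit on chromosome 17 (25823627 to 25828730, plus strand), had 68 to 109 counts in EtOH and 26 to 72 in IAA, and its mean levels were 4.66 ± 0.762 and 5.50 ± 2.04 CPM (SD, n = 4 each). Its IAA libraries lay both below and above the EtOH range, at 3.42 and 7.99 CPM, and the log2 fold change was 0.24 ± 0.30 (adjusted p = 0.627). Wdr59, the WD40 partner of Wdr24, lies on chromosome 8 (111448797 to 111522092, minus strand) and was at 89.6 ± 9.79 CPM in EtOH and 105 ± 7.77 CPM in IAA (log2 fold change 0.23 ± 0.15, adjusted p = 0.312). Seh1l, which also belongs to the nuclear pore, lies on chromosome 18 (67774876 to 67795487, plus strand) and was at 72.8 ± 13.4 CPM in EtOH and 74.4 ± 6.97 CPM in IAA (log2 fold change 0.03 ± 0.17, adjusted p = 0.914). For Wdr59 and Seh1l the EtOH and IAA ranges overlapped as well.

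Rptor is the longest member, 296672 bp on the plus strand of chromosome 11 (119602905 to 119899576), and 4.54% of it is exonic. In line 10E it was at 969 and 676 CPM in EtOH and 912 and 903 CPM in IAA. In line 11D it was at 922 and 657 CPM in EtOH and 820 and 874 CPM in IAA. All IAA libraries fell inside the EtOH range, in which the libraries numbered 1 were the upper ones in both lines. The log2 fold change was 0.12 ± 0.18 (adjusted p = 0.684). Rptoros, a transcript annotated on the opposite strand within Rptor, had 0, 0, 0 and 1 counts in the EtOH libraries and 5, 8, 9 and 12 counts in the shallower IAA libraries. The 2 groups did not overlap, as for 11.8% of tested genes with IAA above, but Rptoros was too low to be tested and no fold is given for it.

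Tsc1, which stabilises Tsc2, lies on chromosome 2 (28641228 to 28691167, plus strand). In line 10E it was at 58.4 and 56.8 CPM in EtOH and 89.4 and 83.6 CPM in IAA, and in line 11D at 63.2 and 68.5 CPM in EtOH and 83.3 and 77.0 CPM in IAA. Every IAA library lay above every EtOH library. The log2 fold change was 0.43 ± 0.15 and did not pass (edgeR, adjusted p = 0.0594). DESeq2 on the same counts gave 0.44 with an adjusted p of 0.0279, and the authors' deposited table gave 0.44 with an adjusted p of 0.0578.

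Tsc2, whose protein is the GTPase-activating subunit that acts on Rheb, lies on chromosome 17 (24595816 to 24632630, minus strand). It was at 41.5 and 48.2 CPM in the EtOH libraries and at 93.5 and 70.6 CPM in the IAA libraries of line 10E. In line 11D it was at 38.2 and 35.0 CPM in EtOH and at 65.9 and 49.4 CPM in IAA. The groups did not overlap, although the lowest IAA library exceeded the highest EtOH library by little. The means were 40.7 ± 5.63 and 69.8 ± 18.2 CPM (SD, n = 4 each), a log2 fold change of 0.78 ± 0.20 (edgeR, adjusted p = 0.021). It was 0.77 in the authors' deposited table, with an adjusted p of 0.00161. The call was lost without the first 10E IAA library (0.61, adjusted p = 0.0669) and without the first 11D EtOH library (0.74, adjusted p = 0.0515). Tsc1 and Tsc2 were thus 2 of 10 members whose IAA libraries all lay above the EtOH libraries, beside 11.8% of tested genes, and no member had all IAA libraries below, beside 11.3%.

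**Figure D1:**
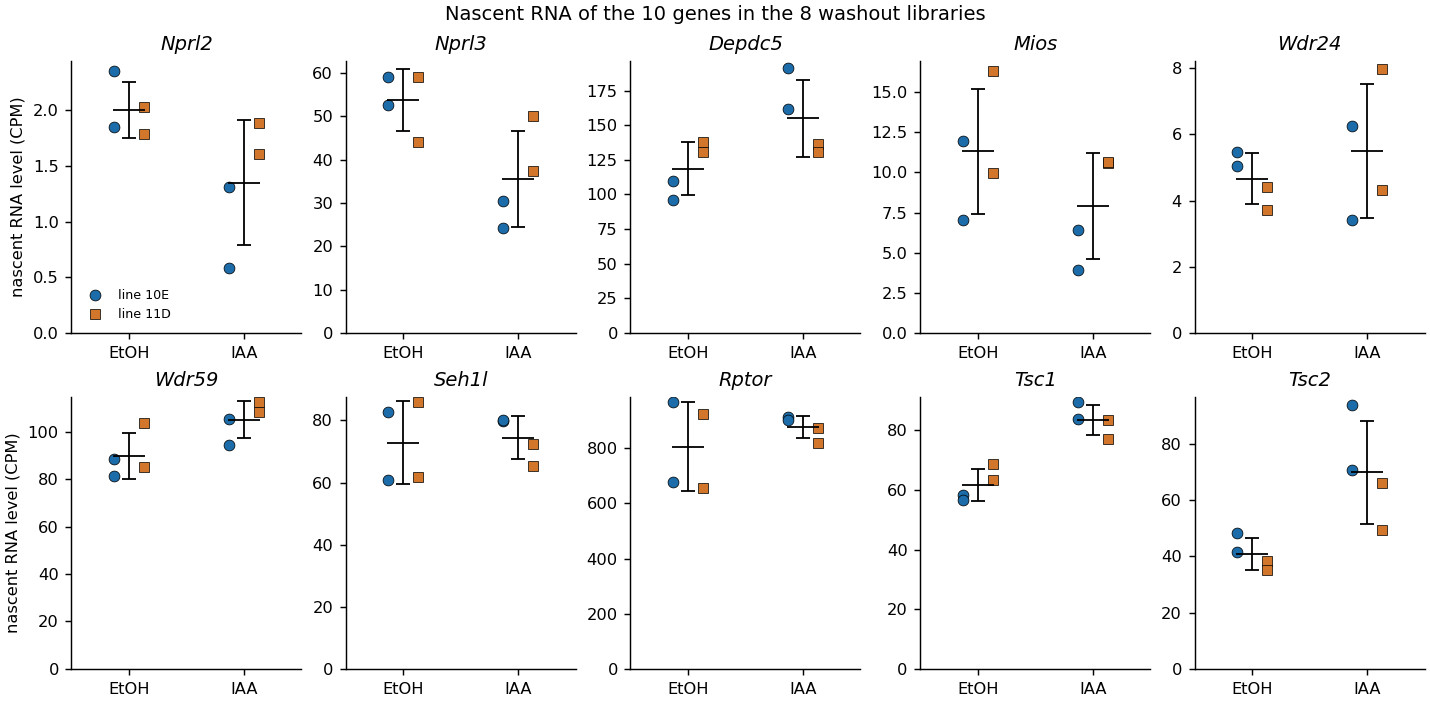
Nascent RNA level (CPM, linear axis from 0) of each of the 10 genes in the 4 EtOH and 4 IAA washout libraries, with circles for line 10E, squares for line 11D, and bars for the mean ± SD of a treatment (n = 4). Tsc1 and Tsc2 are the genes whose IAA libraries all lie above the EtOH libraries, and Nprl3 is lowest in the 10E IAA libraries at 30.5 and 24.3 CPM.

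The lines were then compared. Within line 10E, 2 of 10 members rose, Depdc5 (0.78 ± 0.21, adjusted p = 0.0288) and Tsc2 (0.87 ± 0.24, adjusted p = 0.0313), beside 8.84% of all tested genes. Nprl3 fell in line 10E by 1.03 on the log2 scale (SE 0.25, adjusted p = 0.0212), beside 9.43% of tested genes. Within line 11D no member passed, where 1.59% of tested genes were higher and 1.02% lower. There Nprl3 was at −0.24 ± 0.24, Depdc5 at −0.01 ± 0.21 and Tsc2 at 0.66 ± 0.24, with adjusted p of 0.649, 0.993 and 0.17. These adjusted p-values come from edgeR's quasi-likelihood test with both lines in 1 fit.

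The difference between the lines was tested as a line-by-treatment term. No gene of 15110 passed with edgeR, and 136 of 12675 did with DESeq2, none of them a member. The 2 members with an unadjusted p under 0.05 in edgeR, against 1 in DESeq2, were Depdc5 (−0.78 ± 0.29 in 11D relative to 10E, adjusted p = 0.284, edgeR) and Nprl3 (0.79 ± 0.35, adjusted p = 0.323, edgeR). The members are not shown to respond differently in the 2 lines by either test. Tsc2 was positive in both lines and differed between them by −0.21 ± 0.33 (adjusted p = 0.788, edgeR).

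**Figure D2:**
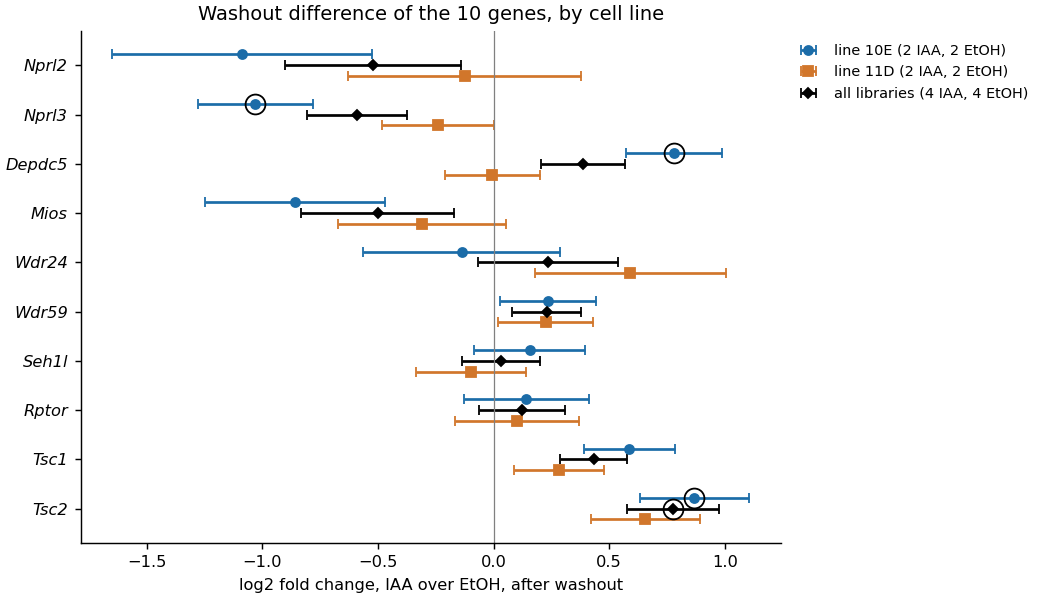
Log2 fold change (IAA over EtOH after washout) of each gene with its SE, for line 10E (blue circles), line 11D (orange squares) and all libraries (black diamonds), with a ring where the adjusted p is under 0.05. Rings fall on Nprl3, Depdc5 and Tsc2 in line 10E and on Tsc2 over all libraries, and Nprl3 lies at −1.03 in 10E and −0.24 in 11D.

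Levels were compared between genes per kilobase of gene span in the EtOH libraries. Seh1l was the highest at 3.53 ± 0.648 CPM per kb, followed by Rptor at 2.72 ± 0.547 CPM per kb. Nprl3 (1.28 ± 0.171), Tsc1 (1.24 ± 0.106), Wdr59 (1.22 ± 0.134), Tsc2 (1.11 ± 0.153), Wdr24 (0.914 ± 0.149) and Depdc5 (0.909 ± 0.145) followed, and Nprl2 (0.576 ± 0.0728) and Mios (0.418 ± 0.144) were the lowest, all in CPM per kb (SD, n = 4). Neighbours in this order overlapped over the 4 libraries except at 2 steps, between Rptor and Nprl3 and between Depdc5 and Nprl2. By this measure of nascent RNA every Nprl3 value lay above every Nprl2 value in the EtOH libraries. The amounts of mature RNA and of the protein subunits were not measured.

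The time-course tables of the authors hold, for each gene, a mean count, a log2 fold change, its SE and p-values, with no value per library. Neither the groups set against each other in each table nor the sign convention is given in the sources used here, so values are called positive or negative as the tables sign them. At 0 h the authors' deposited table listed all 10 members at a log2 fold change near 0, the farthest being Tsc2 at −0.00019, with adjusted p of 0.9998. Of its tested genes, 0.376% were called. The values there look strongly shrunken: the SE of Nprl3 was 0.00144, against 0.288 at 3 h. The pathway gene Rragb was at −8e-06 with an unadjusted p of 0.0104 in the authors' deposited table. Values near 0 at 0 h therefore do not show that the groups were alike, and sizes are not comparable between times. In the authors' deposited table for 3 h none of the 10 was called, beside 0.577% of tested genes. An unadjusted p under 0.05 was listed there, in the authors' deposited table, for 4 members: Wdr24 (0.50 ± 0.39), Rptor (−0.25 ± 0.32), Nprl3 (−0.21 ± 0.29) and Nprl2 (0.11 ± 0.19), as log2 fold change ± SE. The SEs are wide beside the p-values, as in fold changes shrunken toward 0, and such values understate the size of a difference.

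At 6 h Tsc2 was the member called, positive at 0.80 ± 0.32 in the authors' deposited table (adjusted p = 0.037), beside 1.71% of tested genes called positive. Adjusted over every gene with a p-value in that authors' deposited table, with no filter on low means, the p was 0.0533 and the call was lost. The same gene rose in the washout libraries, which are other libraries made after a recovery period. Whether these are the same direction is not known, as the sign convention at 6 h is not given. Nprl3 stood at −0.71 ± 0.38 in the authors' deposited table for 6 h with an adjusted p of 0.0646, rank 74 from the most negative of 10046 genes whose mean count reached 100. Rptor followed at −0.49 ± 0.44 (adjusted p = 0.15) in the same authors' deposited table. The remaining 7 lay between −0.16 (Wdr59) and 0.21 (Nprl2) in the authors' deposited table, and none was called.

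The 12 h values chose the list and are a description. Nprl3 was at −2.51 ± 0.38 in the authors' deposited table (a ratio of 0.175, mean count 736), the fifth most negative of 10554 genes whose mean count reached 100. Chac1 stood just before it at −2.55 and Zfy1 just after it at −2.39 in the authors' deposited table. Rptor was at −1.30 ± 0.40 (rank 235) and Mios at −0.79 ± 0.34 (rank 1129) in the authors' deposited table. These 3 of 10 members carried a negative call there, where 20.7% of all tested genes were called, 12.1% negative and 8.58% positive. The other GATOR subunits were spread from −0.40 ± 0.29 for Depdc5 to 0.51 ± 0.48 for Nprl2, and Tsc1 (0.08 ± 0.19) and Tsc2 (0.19 ± 0.30) were near 0, all without a call in the authors' deposited table. Nprl2 and Nprl3, the paired GATOR1 subunits, thus carried opposite signs at 3, 6 and 12 h in the authors' deposited tables.

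**Figure D3:**
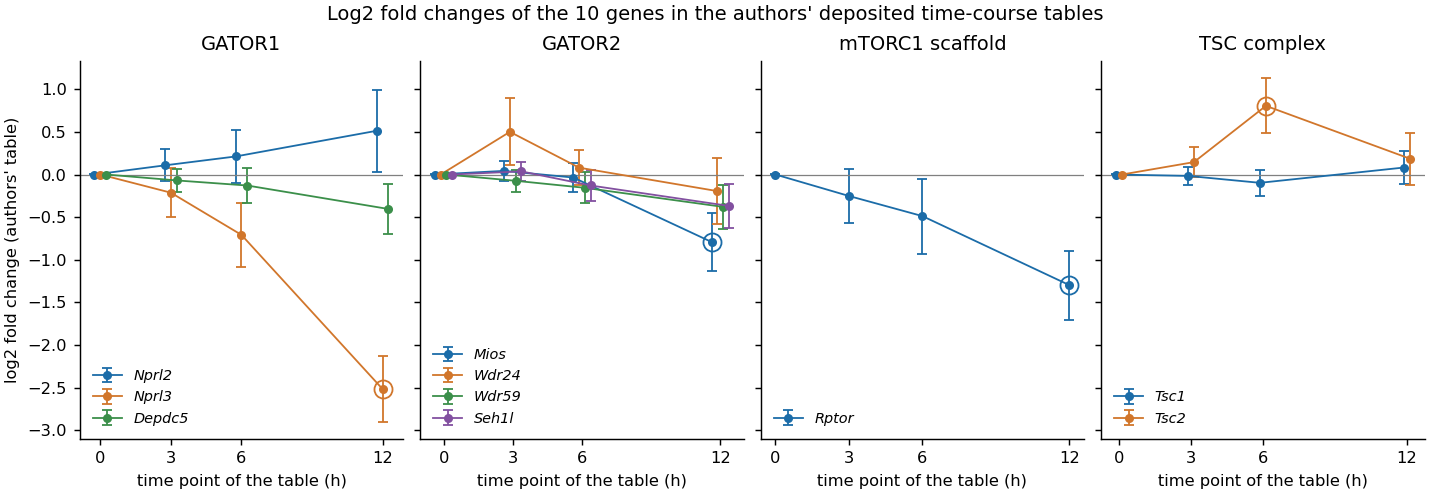
Log2 fold change ± SE of the 10 genes in the authors' deposited tables at 0, 3, 6 and 12 h, in 4 panels by role, with points shifted sideways within a panel for legibility and a ring where the authors' adjusted p is under 0.05. Nprl3 is at −0.21 at 3 h, −0.71 at 6 h and −2.51 at 12 h, and Rptor at −0.25, −0.49 and −1.30. Tsc2 is ringed at 6 h only, at 0.80. The values look shrunken to differing degrees, most at 0 h, so sizes are not comparable between times.

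Values of the 3 members called at 12 h are set beside those after washout, and no test joins the 2 experiments. Rptor was at −1.30 at 12 h in the authors' deposited table and at 0.12 ± 0.18 after washout. Nprl3 was at −2.51 at 12 h in the authors' deposited table and at −0.59 ± 0.22 after washout. Mios was at −0.79 at 12 h in the authors' deposited table and at −0.50 ± 0.33 after washout. The time-course values may be shrunken, the groups behind them are not stated, and the libraries were made separately.

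Upstream antisense transcripts of promoters (PROMPTs) were listed for 7 of the 10 members in the authors' deposited tables. Their mean counts did not exceed 4.24 at any time, none was called, and the smallest unadjusted p was 0.121, all in the authors' deposited tables. At 12 h 5.05% of all tested PROMPTs were called in the authors' deposited table.

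Genes beside or over the members were examined next. Mpg, which encodes a DNA repair glycosylase, lies on the opposite strand within Nprl3 with an overlap of 6196 bp, and the counting used strand. It had 135 to 220 counts in the EtOH libraries and 30 to 72 in the IAA libraries, a log2 fold change of −0.65 ± 0.26 (edgeR, adjusted p = 0.0974). In the authors' deposited tables Mpg was at −0.02 at 6 h and −0.66 at 12 h (adjusted p = 0.0625). Rhbdf1, an inactive rhomboid protease gene 3327 bp downstream of Nprl3 on the same strand, was positive at 12 h in the authors' deposited table (1.17, adjusted p = 0.0132), where Nprl3 was negative, and was at −0.35 ± 0.32 after washout (edgeR, adjusted p = 0.484). Sh3pxd2b, which encodes a podosome adaptor and starts 80112 bp from Nprl3, fell after washout by 0.61 on the log2 scale (SE 0.17, edgeR, adjusted p = 0.0315).

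Beside Nprl2, the cytochrome b561 family gene Cyb561d2 starts 32 bp away on the opposite strand and was positive at 12 h in the authors' deposited table (1.35, adjusted p = 0.00405). Rassf1, a tumour suppressor gene 5848 bp to the other side of Nprl2, fell after washout by 0.73 on the log2 scale (SE 0.21, edgeR, adjusted p = 0.0312). Chmp6, an ESCRT-III gene 13864 bp beyond Rptor, fell by 0.99 (SE 0.24, edgeR, adjusted p = 0.016) while Rptor was at 0.12. Cep192, a centrosome gene 4619 bp beyond Seh1l, rose by 0.83 (SE 0.26, edgeR, adjusted p = 0.0455) while Seh1l was at 0.03. Beside Tsc2, Pkd1, whose end overlaps that of Tsc2 by 693 bp on the opposite strand, was at 0.06 ± 0.19 (edgeR, adjusted p = 0.847), and Nthl1, which starts 49 bp away, was at −0.54 ± 0.25 (edgeR, adjusted p = 0.152). Ptpn2, a phosphatase gene on the other side of Seh1l (−0.80, adjusted p = 0.0261), and Nptx1, a pentraxin gene beside Rptor (1.71, adjusted p = 0.0222), were called at 12 h in the authors' deposited table and did not pass after washout. The nearest tested genes of Depdc5, Mios, Wdr24, Wdr59 and Tsc1 did not pass after washout. Gm33508, the nearest tested gene on the other side of Tsc2 (49284 bp away), was at 1.06 ± 0.52 (edgeR, adjusted p = 0.184), with 10 to 27 counts in each group. Neither Gm33508, Pkd1 nor Nthl1 passed, and whether the change in Tsc2 is shared by its surroundings was not tested.

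Likeness to Nprl3 over the 4 time-course tables was taken among 9991 others whose mean count reached 100 in each table. That number includes genes with placeholder names, which were then left out. The closest named genes were Gatb (Euclidean distance 0.209), Zc3h6 (0.235), Rfesd (0.279), Det1 (0.299) and Tmem260 (0.374). Gatb encodes a subunit of the mitochondrial glutamyl-tRNA amidotransferase and Det1 a ubiquitin ligase component. Their 12 h values in the authors' deposited table ran from −2.57 (Zc3h6) to −2.16 (Tmem260). These values were part of the distance, so their nearness to Nprl3 follows from the choice. Over the 8 washout libraries log2 CPM was compared with that of Nprl3 for 15109 others, again counted before placeholder names were left out. These libraries differ in depth and treatment, and the part of this in the r values was not tested. The closest named genes were Umps (Pearson r = 0.994), Il4i1 (0.986), Cmtm3 (0.985), Gng5 (0.983) and Atp5j2 (0.982). Umps encodes the enzyme that completes uridine monophosphate synthesis and Il4i1 an amino acid oxidase. The 2 sets of 5 have no gene in common, though Il4i1 was near Nprl3 at 12 h in the authors' deposited table (−2.55, rank 3 from the most negative).

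The rest of the pathway was described from a list of 54 genes, of which 53 were found by name and all 53 were tested. After washout 4 rose, 2 fell and 47 did not pass, beside 8.83% and 7.6% of all tested genes, and the median log2 fold change was −0.15 against −0.05 over all tested genes. Mtor, the kinase itself, rose from 100 ± 15.5 CPM to 192 ± 37.9 CPM (SD, n = 4 each; 0.93 ± 0.19, edgeR, adjusted p = 0.0068), with 83.1 to 116 CPM in EtOH and 153 to 238 CPM in IAA. Rptor, which binds this kinase, lay at 0.12 in the same libraries. Rragd, the RagD GTPase, rose from 37.3 ± 5.32 to 63.6 ± 4.46 CPM (0.77 ± 0.16, edgeR, adjusted p = 0.0076).

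Ulk1 and Atg13, both of the autophagy-starting kinase complex that mTORC1 phosphorylates, also rose, by 0.77 ± 0.19 (edgeR, adjusted p = 0.0183) and 0.69 ± 0.15 (edgeR, adjusted p = 0.00844). For Atg13 the lowest IAA value, 77.7 CPM, was above the highest EtOH value, 57.1 CPM, whereas for Ulk1 the EtOH range ended and the IAA range began at 236 CPM. Castor2, of the arginine sensor family that binds GATOR2, fell from 25.1 ± 5.91 to 14.2 ± 2.10 CPM (−0.82 ± 0.20, edgeR, adjusted p = 0.0173). Ddit4, a stress-induced inhibitor that acts through the TSC complex, fell from 16.9 ± 11.9 to 6.07 ± 1.33 CPM (edgeR, adjusted p = 0.044), but its groups overlapped, at 6.18 to 31.2 CPM in EtOH and 4.99 to 8.02 CPM in IAA. Among those that did not pass were Rheb (0.44 ± 0.17, edgeR, adjusted p = 0.0849), Rragc (0.41 ± 0.16, edgeR, adjusted p = 0.0969), Rraga (−0.22 ± 0.19) and Rragb (0.21 ± 0.45). None of the 6 Ragulator and Slc38a9 genes, which anchor the Rag GTPases, and none of the 3 folliculin complex genes passed.

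**Figure D4:**
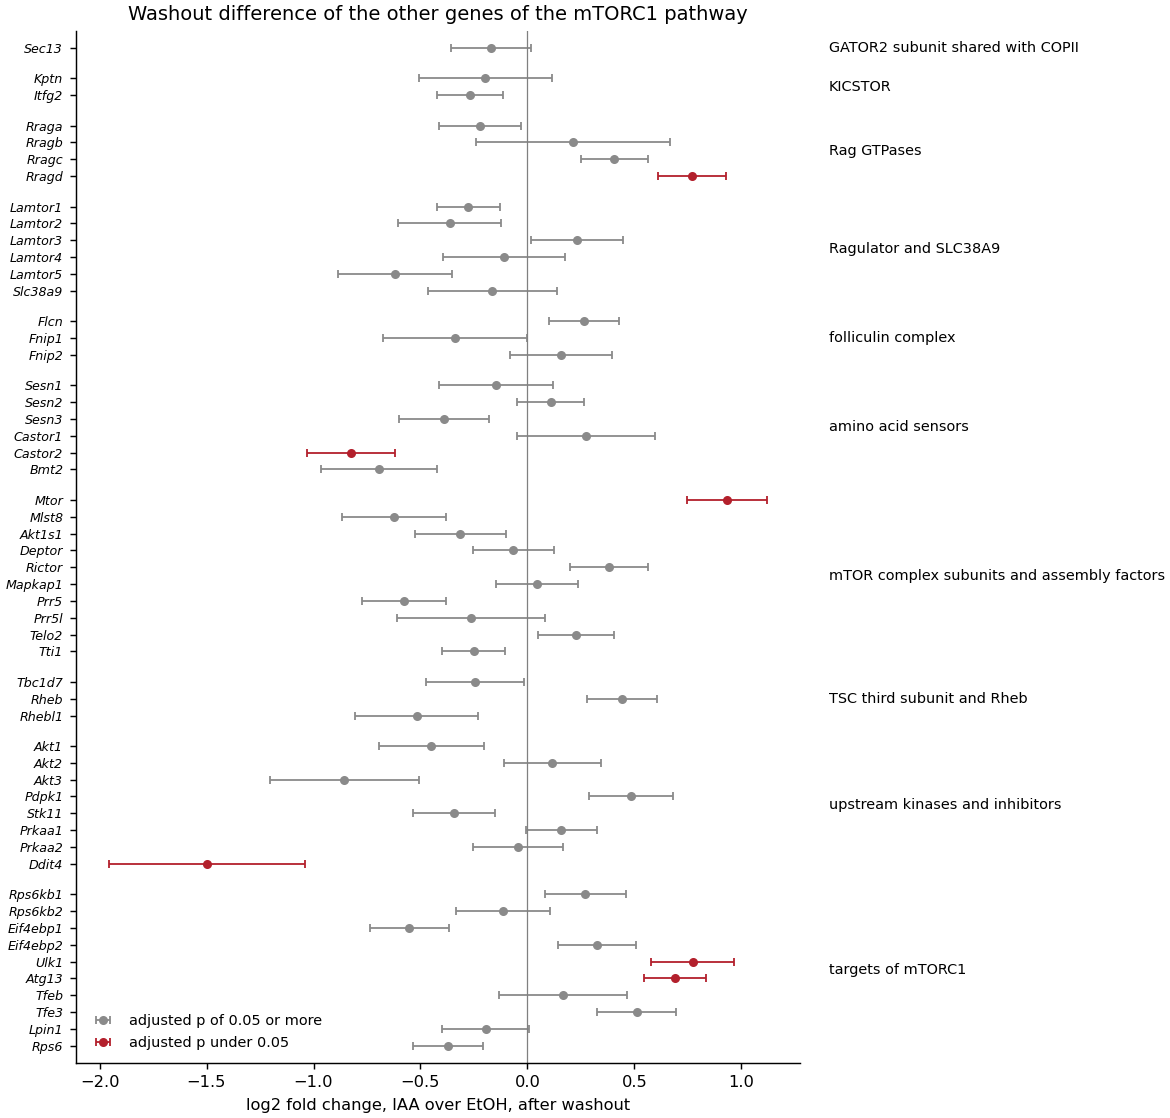
Log2 fold change ± SE (IAA over EtOH after washout, n = 4 each) of the 53 tested pathway genes, ordered by role, with red for an adjusted p under 0.05 and grey for the rest. Mtor, Rragd, Ulk1 and Atg13 lie to the right, up to 0.93, and Castor2 and Ddit4 to the left.

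In the time course, none of the 53 was called at 0 h or 3 h in the authors' deposited tables. At 6 h 1 was called in the authors' deposited table, Castor1, the arginine sensor, positive at 1.26 ± 0.40 (adjusted p = 0.0106) where 3.1% of all tested genes were called. At 12 h 2 were positive and 7 negative in the authors' deposited table, beside 8.58% and 12.1% of all tested genes. Rragd (0.96 ± 0.25) and Rps6kb2, an S6 kinase (0.94 ± 0.33), were the positive ones in the authors' deposited table. The negative ones in the authors' deposited table were Mapkap1 (−1.36 ± 0.36) and Prr5 (−0.82 ± 0.37) of mTORC2, the assembly factor Tti1 (−1.26 ± 0.20), Akt2 (−1.24 ± 0.37), Itfg2 of KICSTOR, the complex that holds GATOR1 at the lysosome (−0.68 ± 0.27), and the mTORC1 targets Eif4ebp1 (−1.22 ± 0.21) and Lpin1 (−1.06 ± 0.37). Mtor was at 0.21 ± 0.22 and Rheb at −0.49 ± 0.29 in the authors' deposited table for 12 h, neither called. Rragd is the pathway gene that was positive at 12 h in the authors' deposited table and that rose after washout. Whether these are the same direction is not known, as the sign convention at 12 h is not given.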

How the data were processed

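TT-seq was done on 30 libraries of mouse E14 embryonic stem cells, 22 in a time course and 8 after washout, and sample groups rest on the sample titles, since the labels' treatment fields contradict some titles. Per the labels' processing notes the reads were handled with STAR and deepTools on mm10. Per the file headers the washout counts were made by the authors with featureCounts 2.0.1 over whole gene spans, introns included, on the reverse strand, as whole-number read counts with no normalization. The time-course tables were deposited with a mean normalised count (a signal), a log2 fold change with its SE, and p-values before and after adjustment, and the deposited washout table adds a score (the test statistic). No other per-library columns were found.

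Washout counts were tested with edgeR 4.0.16 (TMM, filterByExpr, quasi-likelihood test, IAA against EtOH, n = 4 each, Benjamini-Hochberg adjustment over 15110 genes, threshold 0.05). CPM are per TMM-scaled library. In counts simulated for this comparison over 15110 genes, 92% of genes changed by 1.5 on the log2 scale and 14% to 22% of those changed by 0.75 were recovered, with 4 false calls of 114. The changed genes were drawn only from well-counted genes, so these shares do not cover low-count members such as Nprl2 and Wdr24. The data gave 2483 calls, so the unadjusted p needed for a call was smaller in the simulation. These shares are therefore not the power of the test in the data. The lines pair the libraries across treatments by design. Replicates are not stated to be separate cultures, and p-values then reflect only library-to-library spread, which may be technical, and limits of low counts cover counting error only. Genes named are all members, pathway genes that passed or were called, the Rag GTPases, Mtor and Rheb, the 5 genes most like Nprl3 by 2 measures, and nearest or overlapping neighbours. The members, lists and tests were chosen with earlier results of these data known. Some pathway genes are not reported here and were left out of the list and its counts. Promoters are from RefSeq (GRCm38.p6). Alternatives were DESeq2 1.42.0, other scalings and filters, blocks, and leaving out libraries or lines. Tables of enhancer RNA and DNase sites were not used.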

Additional observations from a re-analysis of the deposited data

How the results depend on the processing

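Of 190 member-by-alternative values after washout, 170 kept their sign and their side of the threshold, 7 gained a call, 4 lost one and 9 changed sign. The count of called members, 1 in all libraries, was 2 with DESeq2 (Tsc1 and Tsc2), 2 without a filter on low counts (Nprl3, adjusted p = 0.0200, and Tsc2), and 0 to 2 when each library was left out in turn. In alternatives chosen after seeing the data it was 3 in line 10E alone, 0 in line 11D alone, 2 in the libraries numbered 1 and 0 in those numbered 2. Without the second 11D IAA library Nprl3 was called (−0.80, adjusted p = 0.0209), and without the second 11D EtOH library Tsc1 was (0.48, adjusted p = 0.0493). Genes changed, 2483 in all libraries, 1334 higher and 1149 lower, numbered 3656 without a filter, where the majority turned (1731 higher, 1925 lower), 3583 with DESeq2 (2053 higher, 1530 lower), 3368 in line 10E alone (1760 higher, 1608 lower) and 3242 in the authors' deposited table (1815 higher, 1427 lower). They numbered 1417 to 2641 with 1 library left out, 443 in line 11D alone, 1506 in the libraries numbered 1 and 86 in those numbered 2. The 6 pathway genes, 4 higher and 2 lower, became 11 without a filter (4 higher, 7 lower), 7 in line 10E alone (3 higher, 4 lower), 8 in the authors' deposited table (4 higher, 4 lower), 4 to 7 with 1 library left out, 1 in line 11D alone and 1 in the libraries numbered 2. With cell line as a block 2302 genes passed, among them 1 member, Tsc2. With line and replicate number as a replicate block 1467 genes, 1 member (Tsc2, adjusted p = 0.0369) and 4 pathway genes passed. Same-numbered EtOH and IAA libraries of a line did not deviate together (r of −0.01 in 10E and −0.17 in 11D), so no pairing across treatments was seen. Each r rests on 1 contrast per line and does not speak to the split by replicate number among the EtOH libraries. Seh1l changed sign without a filter (−0.031), in line 11D alone (−0.10) and in the libraries numbered 1 (−0.22), and ranged from −0.049 to 0.12 with 1 library left out. Wdr24 changed sign in line 10E alone (−0.11) and ranged from −0.0093 to 0.41 with 1 library left out. Depdc5 changed sign in line 11D alone (−0.0061) and Rptor in the libraries numbered 1 (−0.13). At 6 h the member count in the authors' deposited table, 1, was 0 with the adjustment recomputed without a filter and 0 at an adjusted p under 0.01. Fits with fewer libraries have less to test with, and the cause of the other differences was not tested. Nprl2 had 3 to 51 counts a library.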
